A study of Rattus norvegicus with 3 samples.

Results

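The genes described here belong to toll-like receptor and NF-kB signalling. They were selected by gene symbol alone: toll-like receptors, the receptor partner Ly96, NOD receptors, the adaptors, the IRAK, TRAF, TAK1 and IKK families, the NF-kB subunits and their inhibitors. This gave 44 genes of 14218 on the array, represented by 55 probe sets. The rule used no expression value, but the set was chosen with earlier results of these data known. Where a gene had several probe sets, the one with the highest average of the 3 arrays stood for it.

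The samples were donor kidneys of male Wistar rats of 370 to 508 g that modelled organ donation after cardiac death. Every donor kidney, those of the control group included, had 20 min of warm ischaemia, a mean of 17 ± 0.7 h of cold storage in University of Wisconsin solution, and then perfusion with blood from the femoral artery of a live recipient lasting 5 h 43 min ± 21 min, where the sources used here do not say what kind of error follows the sign. Recipients of the heparin group received heparin at 100 U/ml/h, those of the peptide group received peptide 2 at 0.5 mg/ml, and those of the control group received normal saline at 1 ml/h, with 7 recipients in each group. Peptide 2 was modelled on the part of the chemokine CCL5 that binds heparin. Each array carried pooled RNA of 3 kidneys of its group, so there were 3 arrays with 1 array per group, no kidney without ischaemia, and no replicate of any value. All differences below are therefore between single pools, without a test, a standard error or a p-value. In such whole-tissue RNA, fewer cells of a type and less RNA per cell cannot be told apart.

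Toll-like receptors recognise microbial products and also molecules released by injured cells, which makes them of interest in reperfused kidneys. Most of them signal through the adaptor MyD88 to the IRAK kinases and the ubiquitin ligase TRAF6, which activate the kinase TAK1 and then the IKK complex. IKK marks the inhibitor IkB-alpha (Nfkbia) for destruction, and the freed NF-kB dimers enter the nucleus and switch on genes of inflammation, among them Nfkbia itself and Tnfaip3 (A20), which end the signal. Much of this signalling runs through changes of the proteins and not of their transcripts, and the arrays measured transcripts only.

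The DNA before these genes was searched for the sequence that NF-kB binds. RefSeq promoter windows of the rat assembly GRCr8, from 250 bases before to 50 bases after the start of a transcript, were at hand for 35 of the 44 genes, and not for Ticam1, Ikbkb, Tab1, Traf6, Nfkbil1, Map3k7cl, Relb, Ly96 and Irak2. The NF-kB consensus, searched on both strands, was found in the windows of 10 of these 35 genes (28.6%), namely Tnfaip3, Nfkb2, Tlr2, Nfkb1, Nfkbia, Traf3, Irak3, Tnip1, Nfkbiz and Traf3ip2, against 4.51% of all 27457 genes in the promoter table. Over the 11734 genes of the array with a window, the share was 5.28%. Nfkb1, Nfkb2, Nfkbia and Tnfaip3 were already known as NF-kB targets, so the share of the signalling genes is no independent evidence. A match is a run of letters and was not shown to be bound in these kidneys. Those of 4 genes are shown because they belong to the receptor with the widest gap between the treatments (Tlr2) and to genes by which NF-kB regulates itself (Nfkbia, Tnfaip3 and Nfkb2). Capitals mark the bases that match the consensus, and overlapping matches are joined.
Tlr2, chr2:171504508-171504807, minus strand: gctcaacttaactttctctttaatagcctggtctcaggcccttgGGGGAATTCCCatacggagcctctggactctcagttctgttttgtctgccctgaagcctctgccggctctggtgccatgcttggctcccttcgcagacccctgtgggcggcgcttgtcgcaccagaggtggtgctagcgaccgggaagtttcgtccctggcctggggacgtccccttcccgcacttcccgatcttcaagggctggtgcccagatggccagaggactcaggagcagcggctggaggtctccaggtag
Nfkbia, chr6:78597023-78597322, minus strand: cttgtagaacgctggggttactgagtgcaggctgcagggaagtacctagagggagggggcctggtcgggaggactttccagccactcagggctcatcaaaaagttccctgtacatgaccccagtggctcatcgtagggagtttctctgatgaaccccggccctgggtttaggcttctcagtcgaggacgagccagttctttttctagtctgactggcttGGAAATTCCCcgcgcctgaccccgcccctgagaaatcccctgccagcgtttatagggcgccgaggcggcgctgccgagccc
Tnfaip3, chr1:15543930-15544229, minus strand: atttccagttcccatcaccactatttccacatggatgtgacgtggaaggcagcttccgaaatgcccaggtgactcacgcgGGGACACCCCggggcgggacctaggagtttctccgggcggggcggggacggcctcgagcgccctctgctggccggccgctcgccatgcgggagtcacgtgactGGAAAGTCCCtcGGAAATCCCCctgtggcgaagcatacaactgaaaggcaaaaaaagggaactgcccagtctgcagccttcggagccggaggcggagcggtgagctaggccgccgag
Nfkb2, chr1:255108124-255108423, plus strand: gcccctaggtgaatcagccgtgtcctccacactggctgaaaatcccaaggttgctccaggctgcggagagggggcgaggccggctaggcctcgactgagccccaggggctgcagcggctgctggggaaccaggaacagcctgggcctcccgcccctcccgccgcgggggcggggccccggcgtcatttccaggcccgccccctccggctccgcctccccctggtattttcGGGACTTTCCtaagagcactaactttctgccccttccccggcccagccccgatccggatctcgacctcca
The match of Tlr2 begins 206 bases before the start of the transcript, that of Nfkbia 31 bases and that of Nfkb2 20 bases before it, while Tnfaip3 has 3 matches, at 170, 67 and 55 bases. Tnip1 carries the 12-base stretch GGGGAATTCCCC, in which 3 matches overlap, 86 bases before its start. All 10 genes with a match passed the filter on low values, and 0 of them differed by 1.5-fold or more between either treated pool and the control pool. Over all measured genes 6.41% did with heparin and 3.03% with peptide, so a count of 0 among 10 genes is near the share of all genes and sets them apart in nothing.

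The values are log2 expression values. To be measured in a comparison, a gene had to reach the median of the array's probe sets (4.14 to 4.16) on both arrays. Of the 44 genes, 40 were measured in all 3 comparisons. Tlr8, Irak4, Traf1 and Traf3ip3 lay below the median on every array and get no further comparison. Across probe sets, the correlation between any pair of arrays was 0.996 to 0.998. Many genes had nearly the same value on different arrays. All 3 values lay within 0.01 of each other for 11 of the 40 signalling genes (27.5%) and for 2332 of the 9231 genes measured on all arrays (25.3%). In heparin against control 14 of the 40 lay within 0.01 (33.4% of all genes), in peptide against control 21 (43.0%) and in heparin against peptide 13 (32.8%). Such a match does not show equal amounts of transcript.

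As a group, the signalling genes were close to level between the pools. In heparin against control, 1 of 40 was at least 1.5-fold higher (Traf5) and 0 were at least 1.5-fold lower, where 3.04% and 3.37% of 9236 measured genes were (6.41% in either direction). In peptide against control, 1 of 40 was at least 1.5-fold higher (Irak2) and 0 at least 1.5-fold lower, against 2.11% and 0.917% of 9268 genes (3.03% in either direction). These shares of the signalling genes are near those of all genes and set the group apart in neither comparison. No signalling gene reached 2-fold in any comparison, where 1.81%, 0.842% and 1.13% of all measured genes did (heparin against control, peptide against control, heparin against peptide). The median difference was 0.00 on the log2 scale in each comparison, as it was over all measured genes. The median absolute difference in heparin against control was 0.07 for the signalling genes and 0.08 for all genes, and 9 in 10 signalling genes differed by less than 0.30, against 0.47 for all genes.

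**Figure D1:**
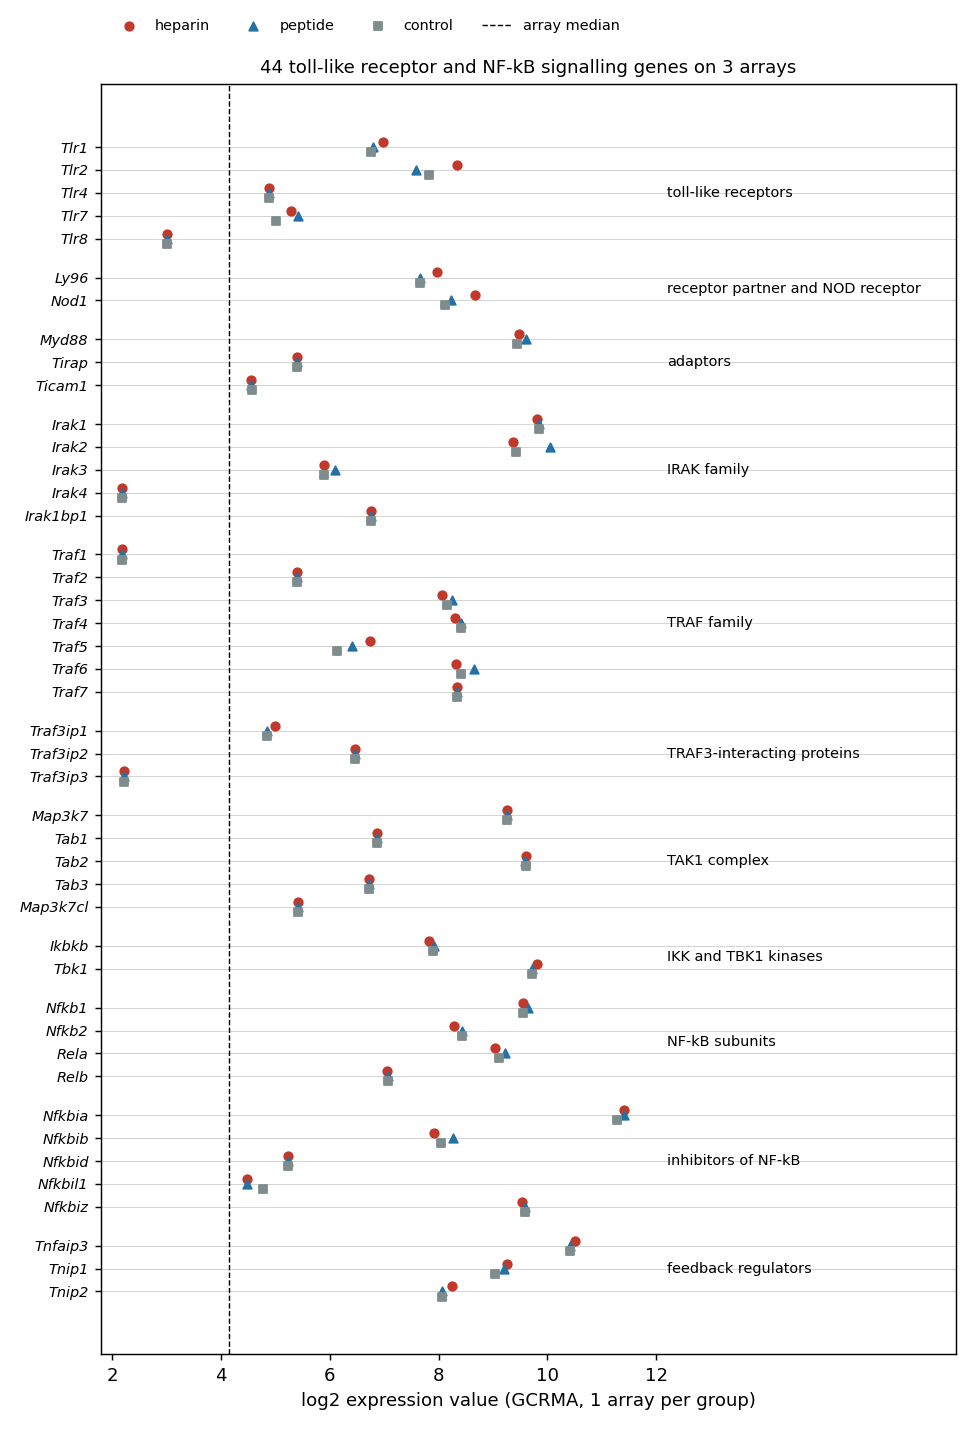
Log2 expression value (horizontal axis, no unit) of each of the 44 genes, ordered by role, on the heparin (circles), peptide (triangles) and control (squares) arrays, 1 pool of 3 kidneys each, with symbols set apart vertically for legibility. The 3 symbols of most genes nearly coincide, and those of Tlr2, Nod1, Irak2 and Traf5 are visibly apart. Values of different probe sets cannot be set against each other.

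Small differences had a direction that depended on the scaling of the arrays. In the values as deposited, in peptide against control, 15 signalling genes were higher by 0.01 or more and 4 were lower, where 30.4% and 26.6% of all genes were. The 4 lower ones were Tlr2, Ticam1, Tab2 and Nfkbil1. In heparin against control, 13 were higher and 13 lower, where 24.5% of all genes were higher and 42.1% lower. After quantile normalization 15 were higher and 15 lower (37.5% each) in peptide against control, where 29.0% and 47.9% of all genes were. In heparin against control 27 were then higher and 9 lower, where 57.8% and 36.6% of all genes were. The balance of higher and lower genes changed with the scaling, so these counts settle no direction of the group. Both treated pools share the control pool, so a high or low control value would appear in both comparisons. Against that pool, in the values as deposited, 7 signalling genes were higher in both treated pools, 2 were lower in both, 6 were lower in the heparin pool and higher in the peptide pool, and 1 was the other way round (Tlr2). For 10 genes the heparin value alone stood apart, and for 3 the peptide value alone. These splits were not counted over all genes, so they cannot be read as a trait of the signalling genes.

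Of the 6 measured receptors and partners, 0 differed by 1.5-fold between either treated pool and the control pool. Over all measured genes 6.41% did with heparin and 3.03% with peptide, so a count of 0 among 6 genes sets them apart in nothing. With heparin 5 of them were higher than control by 0.01 or more as deposited, where 24.5% of all genes were. After quantile normalization all 6 were, Tlr4 by 0.02, where 57.8% of all genes were. Tlr2, the receptor for bacterial lipoproteins, which pairs with Tlr1, had log2 values of 8.33 in the heparin pool, 7.59 in the peptide pool and 7.83 in the control pool. It was thus highest with heparin and lowest with peptide, with log2 differences from control of 0.51 and -0.23. Tlr1 had 6.97 in the heparin pool, 6.79 in the peptide pool and 6.76 in the control pool, so its difference from control was 0.22 with heparin and 0.03 with peptide. Tlr7, an endosomal receptor for single-stranded RNA, had 5.28 in the heparin pool, 5.41 in the peptide pool and 5.00 in the control pool. It was higher in both treated pools, by 0.28 and 0.41, which became 0.15 and 0.22 with 32 added to the unlogged values. Tlr4, the receptor for bacterial lipopolysaccharide, read 4.88 on all 3 arrays. Its partner Ly96 (MD-2), which binds the lipopolysaccharide, had 7.97 in the heparin pool, and 7.66 in both the peptide and the control pool, a difference of 0.31 with heparin. Nod1, a cytosolic sensor of bacterial peptidoglycan, had 8.67 in the heparin pool, 8.22 in the peptide pool and 8.12 in the control pool. Its 1.47-fold higher value with heparin lay just under the 1.5-fold line. A difference as large as that of Nod1 was found for 7.2% of all measured genes in heparin against control, and one as large as that of Tlr2 for 8.8%.

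Because these receptors are carried by leukocytes and by endothelium as well as by tubular cells, marker lists are set beside them. Their counts at 1.5-fold against control are to be read beside the shares of all measured genes. These were 3.04% higher and 3.37% lower with heparin, and 2.11% higher and 0.917% lower with peptide. Of 16 monocyte and macrophage markers on the array, 13 were measured, and 1 of them was at least 1.5-fold higher in each treated pool than in the control pool (Fcgr3a, 1.06 with heparin and 1.34 with peptide), with list medians of 0.02 and 0.04. The summed unlogged values of this list were 19282 in the heparin pool, 15137 in the peptide pool and 14125 in the control pool, most of it from the lysozyme gene Lyz2, and Cd163 and Cx3cr1 lay at the lowest value of the array. Endothelial markers had a median difference of 0.32 in heparin against control and 0.00 in peptide against control over 9 genes, with summed values of 5844, 3964 and 4474 in the heparin, peptide and control pools. Of 7 neutrophil markers 5 were measured and 0 differed by 1.5-fold, with summed values of 11921, 15416 and 12762. T and NK cell markers were below the array median for 12 of 14 genes and B cell markers for 5 of 5. Platelet markers summed to 868, 871 and 1530, with 4 of 4 measured genes at least 1.5-fold lower with heparin and 3 of 4 with peptide. The part of any of these cells in the differences of the signalling genes was not tested. All 13 tubule and podocyte markers on the array were measured, with summed values of 74151, 74423 and 71541 in the heparin, peptide and control pools. In heparin against control 1 was at least 1.5-fold higher (Podxl, 0.74) and 1 lower (Calb1, -1.83), and in peptide against control 1 was lower (Wt1, -0.79). Of 6 red cell markers 4 were measured, with 1 higher (Gypc, 1.00) and 1 lower (Alas2, -1.13) with heparin and 0 past that line with peptide, and summed values of 26127, 29569 and 30893.

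Of the adaptors that couple the receptors to the kinases, Ticam1 and Tirap were close to level, and Myd88 differed by at most 0.16. Myd88, used by nearly all toll-like receptors and by interleukin 1 receptors, had 9.47 in the heparin pool, 9.60 in the peptide pool and 9.44 in the control pool. It was highest with peptide, by 0.16 over control. Ticam1 (TRIF), the adaptor of the branch to interferon, lay between 4.55 and 4.56 on the 3 arrays, and Tirap, the bridge between MyD88 and the surface receptors, read 5.40 on all of them.

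Among the IRAK genes, Irak2 stood apart in the peptide pool. It encodes a member of the family that sustains signalling to TRAF6, and it had log2 values of 9.36 in the heparin pool, 10.05 in the peptide pool and 9.43 in the control pool. The heparin and control pools lay 0.06 apart, while the peptide pool was 1.54-fold above control, a difference reached by 2.7% of all measured genes in that comparison. Irak3 (IRAK-M), an inhibitor of the pathway, had 6.09 in the peptide pool, against 5.90 in both the heparin and the control pool. Irak1, the kinase that acts with IRAK4 at the receptor, had 9.81 in the heparin pool and 9.85 in the others, and Irak1bp1, which encodes a protein that binds IRAK1, read 6.76 on each array.

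Of the TRAF genes, which encode adaptors and ubiquitin ligases below the receptors, Traf5 differed most. Traf5, which works below receptors of the TNF family, had 6.75 in the heparin pool, 6.41 in the peptide pool and 6.12 in the control pool. It was higher in both treated pools, 1.54-fold with heparin and 1.22-fold with peptide. With 32 added to the unlogged values, the heparin difference fell short of 1.5-fold (0.45 on the log2 scale, against 0.62). Traf6, the ligase between the IRAK kinases and TAK1, had 8.32 in the heparin pool, 8.65 in the peptide pool and 8.41 in the control pool. The gene was read by 4 probe sets, and all were measured. Their differences from control were -0.32, -0.31, -0.10 and -0.00 with heparin and -0.08, 0.00, 0.24 and 0.20 with peptide, in the order of the heparin values, so they agree on no increase with heparin and differ in sign with peptide. Traf3, a brake on the non-canonical branch and a link to TBK1, had 8.07 in the heparin pool, 8.25 in the peptide pool and 8.15 in the control pool, and Traf4 had 8.30 in the heparin pool and 8.40 in the others. Traf2 (5.40) and Traf7 (8.33) had 1 value on all 3 arrays. Of the genes named for binding TRAF3, Traf3ip1 was 0.13 higher with heparin and level with peptide, and Traf3ip2 (Act1, the adaptor of interleukin 17 receptors) read 6.46 throughout.

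The genes of the TAK1 complex were close to level as deposited. The kinase gene Map3k7, the partners Tab1 and Tab3, and Map3k7cl, placed here by its symbol alone, differed by less than 0.01 between any 2 pools. Tab2 had 9.60 in the heparin pool, 9.59 in the peptide pool and 9.60 in the control pool. The second probe set of Tab3 was 0.14 higher in each treated pool than in the control pool. Ikbkb, the IKK-beta kinase that marks IkB-alpha, had 7.82 in the heparin pool, 7.92 in the peptide pool and 7.90 in the control pool. Tbk1, the kinase of the TRIF branch, had 9.81 in the heparin pool and 9.72 in both the peptide and the control pool.

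The 4 measured NF-kB subunit genes moved by little, and each was lower in the heparin pool than in the peptide pool as deposited, of which Relb turned to 0.05 higher after quantile normalization. Rela (p65), the main activating subunit, had 9.03 in the heparin pool, 9.23 in the peptide pool and 9.12 in the control pool. Nfkb1 (p105, the precursor of p50) had 9.55 in the heparin pool, 9.65 in the peptide pool and 9.55 in the control pool. Nfkb2 (p100, the precursor of p52) had 8.28 in the heparin pool and 8.43 in the other pools, and Relb, its partner in the non-canonical branch, had 7.05 in the heparin pool and 7.07 in the others. These gaps, of at most 0.20 between the heparin and peptide pools, were as large as those of many other genes: 31.9% of all genes differed as much as Rela in that comparison.

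Genes by which NF-kB restrains itself, among them Nfkbia and Tnfaip3 with the promoter matches shown above, were also close between pools. Nfkbia, the inhibitor that holds the dimers in the cytoplasm, had 11.40 in the heparin pool, 11.41 in the peptide pool and 11.28 in the control pool. Tnfaip3, the ubiquitin-editing enzyme A20, had 10.50 in the heparin pool, and 10.42 in both the peptide and the control pool. Tnip1, which binds A20 and ubiquitin chains, had 9.26 in the heparin pool, 9.21 in the peptide pool and 9.04 in the control pool, so it was 0.22 and 0.16 above control. The partner Tnip2, for which no match was found, had 8.25 in the heparin pool and 8.06 in the others. Nfkbiz, a nuclear co-regulator of the same family, had 9.54 in the heparin pool and 9.58 in the others.

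The other inhibitors varied slightly more. Nfkbib (IkB-beta) had 7.92 in the heparin pool, 8.27 in the peptide pool and 8.04 in the control pool, and was thus on opposite sides of control in the treated pools. Nfkbil1 had 4.48 in both treated pools and 4.77 in the control pool, the lowest of the differences against control among the 40 genes (-0.29 in each), at a level near the filter. With 32 added to the unlogged values it became -0.13. Nfkbid read 5.23 on all arrays.

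**Figure D2:**
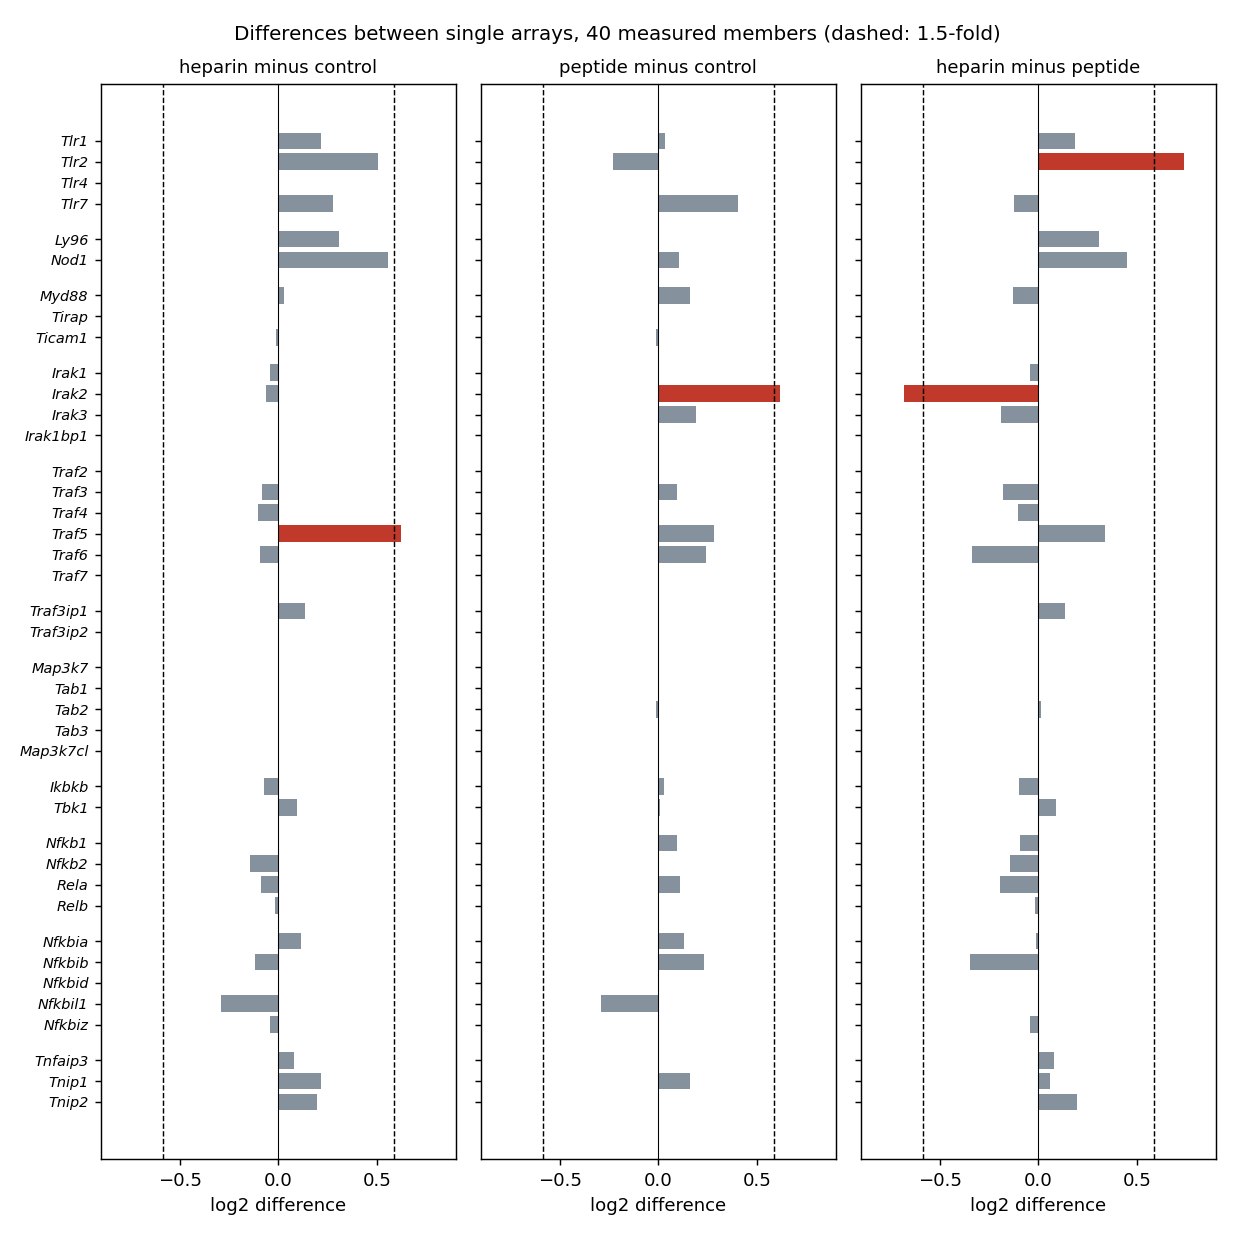
Log2 difference between single arrays (horizontal axes) for the 40 measured genes, in heparin minus control, peptide minus control and heparin minus peptide, with dashed lines at 1.5-fold and red bars beyond them. Traf5 passes the line with heparin, Irak2 with peptide, and Tlr2 and Irak2 on opposite sides between the treatments.

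Set directly against each other, the heparin and peptide pools differed by at least 1.5-fold in 2 of the 40 genes, where 6.19% of 9240 measured genes did (1.62% higher and 4.57% lower with heparin). Of these calls over all genes 26.2% were higher with heparin, and 37.4% after quantile normalization. Tlr2, with 8.33 in the heparin pool and 7.59 in the peptide pool, was 1.67-fold higher with heparin. Irak2, with 9.36 in the heparin pool and 10.05 in the peptide pool, was lower with heparin by 0.68 on the log2 scale. A gap as large as that of Tlr2 was found in 3.3% of all genes and one as large as that of Irak2 in 4.1%. Next came Nod1 (0.45), Nfkbib (-0.35), Traf5 (0.34) and Traf6 (-0.34). Of the 6 measured receptors and partners, 1 (Tlr2) passed 1.5-fold between the treatments, with Nod1 at 0.45, Ly96 at 0.31, Tlr1 at 0.18, Tlr7 at -0.13 and Tlr4 level. In all, 11 genes were higher by 0.01 or more with heparin and 16 lower, against 25.4% and 41.8% of all genes, so the larger number on the lower side was also seen over all genes. After quantile normalization 26 were higher and 12 lower, where 60.5% and 35.1% of all genes were. The direction thus flipped for the signalling genes and for all genes alike. Tlr2, Nod1, Ly96 and Tlr1 were still higher and Irak2, Nfkbib and Traf6 lower.

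The wider pathway, taken from lists that leave these 44 genes out, had a few larger values. Of 14 measured accessory proteins and ligands of the receptors, 2 were at least 1.5-fold higher with heparin than in control and 0 lower, against 3.04% and 3.37% of all measured genes, and 0 differed that much with peptide, against 3.03%. Unc93b1, which carries endosomal toll-like receptors such as Tlr7 to their compartment, had 8.80 in the heparin pool, 8.58 in the peptide pool and 8.10 in the control pool. It was higher in both treated pools, as Tlr7 was. Vcan, a matrix proteoglycan that can activate Tlr2, had 9.24 in the heparin pool, 8.77 in the peptide pool and 8.56 in the control pool, and its 3 other measured probe sets were also higher with heparin, by 0.51 to 1.17. Cd36, a scavenger receptor that cooperates with Tlr2, had 6.71 in the heparin pool, 6.99 in the peptide pool and 7.27 in the control pool, lower in both treated pools. Cd14, which hands lipopolysaccharide to Tlr4 and Ly96, had 8.71 in the heparin pool, 8.43 in the peptide pool and 8.32 in the control pool. Like Ly96, it was highest with heparin. The ligand genes S100a8 and S100a9, abundant in neutrophils, were higher with peptide by 0.38 and 0.23 and lower with heparin by 0.13 and 0.08, all under 1.5-fold. Hspa1a, which encodes an inducible heat shock protein, had 14.67 in the heparin pool, 14.28 in the peptide pool and 14.34 in the control pool.

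In the interleukin 1 receptor family, whose members share MyD88, 5 genes were measured and 1 was at least 1.5-fold higher with heparin, against 3.04% of all measured genes. This was Il1r1, the signalling receptor, with 8.47 in the heparin pool, 8.24 in the peptide pool and 7.86 in the control pool. Its partner Il1rap had 6.76, 6.45 and 6.29 in the same order of pools, and the decoy receptor Il1r2 10.06, 9.99 and 9.88. All 3 were highest with heparin and lowest in control. Sigirr, an inhibitor of the family, differed by at most 0.03, and Il1rn, the receptor antagonist, had 5.91 in both treated pools and 5.93 in the control pool.

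Of 45 further signalling genes measured in heparin against control, 2 were at least 1.5-fold higher and 2 lower, against 3.04% and 3.37% of all measured genes, so these counts are near those over all genes. Ripk3, the kinase of necroptosis, had 9.91 in the heparin pool, 9.38 in the peptide pool and 8.94 in the control pool. Casp8, the caspase that opposes necroptosis, had 8.55 in the heparin pool, 8.34 in the peptide pool and 7.93 in the control pool, but its other measured probe set differed from control by 0.04 and 0.05. On the probe sets used, both genes were higher in the 2 treated pools, more so with heparin. Zc3h12a (Regnase-1), which degrades cytokine transcripts, had 6.50 in the heparin pool, 7.21 in the peptide pool and 7.12 in the control pool. The deubiquitinase gene Otud7b had 6.97 in the heparin pool and 7.56 in the others, with its 2 other measured probe sets at -0.40 and 0.00. Both were lowest in the heparin pool. The counts rest on 1 probe set per gene. Tollip was at -0.15 with heparin and 0.15 with peptide on the probe set used. Its 2 other measured probe sets lay at -1.23 and -0.50 with heparin, and at 0.43 and 0.44 with peptide. In peptide against control 0 of 47 reached 1.5-fold, against 3.03% of all genes. The largest differences there, on the probe sets used, were Tax1bp1, a partner of A20, at -0.50, Ripk3 at 0.44 and the TNF receptor gene Tnfrsf1b at 0.43. Tax1bp1 was also lower with heparin (-0.42), with 11.53 in the heparin pool, 11.44 in the peptide pool and 11.95 in the control pool. Chuk, the IKK-alpha kinase, had 10.61 in the heparin pool and 10.77 in the others.

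Transcripts that NF-kB is known to switch on held larger differences, in both directions. Of 48 target genes on the array, 39 were measured against control. With heparin 8 were at least 1.5-fold higher and 7 lower, and with peptide 9 were higher and 2 lower, where 6.41% and 3.03% of all genes passed that line in either direction. The counts rest on 1 probe set per gene. With peptide, Xiap was at 0.68 but at -0.13 on its other measured probe set, while Plau was at 0.68 and 0.51. With heparin, Bcl2l1 was at -0.16 and its other measured probe set at -1.01. The list medians were 0.07 with heparin and 0.22 with peptide. Between heparin and peptide, 1 of 40 was higher and 12 were lower with heparin, where 1.62% of all genes were higher and 4.57% lower. The lower side was the larger over all genes as well, but less so, as 26.2% of those calls were higher with heparin. The target genes were listed with earlier results of the same arrays known, so the counts describe them and are no independent evidence. Many of them are also controlled by interferon or other signals.

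**Figure D3:**
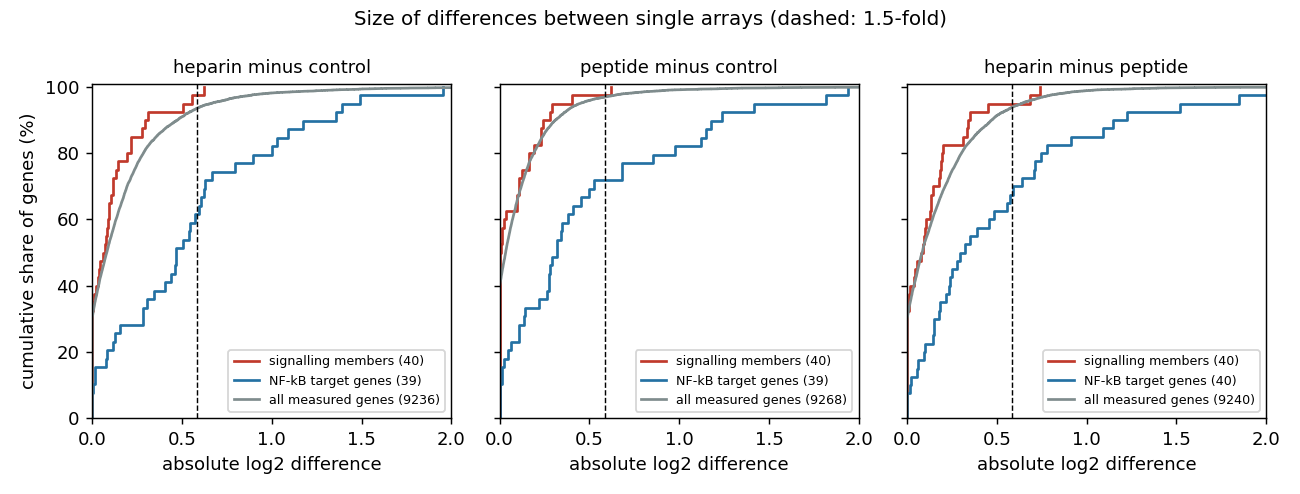
Cumulative share of genes (vertical axes, percent) by absolute log2 difference between single arrays (horizontal axes, cut at 2) for the signalling genes, the NF-kB target genes and all measured genes, with the number of genes in the key and a dashed line at 1.5-fold. The curve of the signalling genes stays close to or left of that of all genes, and the curve of the target genes lies to the right in each comparison.

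Targets went in both directions, also within 1 pool. Il23a, a subunit of interleukin 23, had 5.17 in the heparin pool, 8.08 in the peptide pool and 6.66 in the control pool, so it lay on opposite sides of control in the 2 treated pools. Ccl4, a chemokine for monocytes and lymphocytes, had 5.36 in the heparin pool, 6.88 in the peptide pool and 6.03 in the control pool, likewise on opposite sides. Cd69, an early activation antigen of leukocytes, had 5.83 in the heparin pool, 6.47 in the peptide pool and 4.66 in the control pool. It was higher in both treated pools. Mmp3, a matrix-degrading enzyme, had 5.51 in the heparin pool, 7.36 in the peptide pool and 7.47 in the control pool, low with heparin alone. Ccl5, which attracts T cells and monocytes, had 9.39 in the heparin pool, 10.54 in the peptide pool and 8.60 in the control pool. Ccl7, another monocyte attractant, had 8.54 in the heparin pool, 8.39 in the peptide pool and 7.15 in the control pool. Both chemokines were higher in the treated pools, Ccl5 more so with peptide. Ccl20, which attracts cells that carry Ccr6, had 7.48 in the heparin pool, 7.71 in the peptide pool and 8.84 in the control pool, lower in both. Ifnb1, which the TRIF branch can switch on but which is not particular to it, had 5.16 in the heparin pool and 6.38 in the peptide pool. It was under the array median, at 3.31, in the control pool. Widely used target genes also differed among themselves. Cxcl10, a chemokine also induced by interferon, had 14.11 in the heparin pool, 14.09 in the peptide pool and 13.11 in the control pool, and Ccl2, a monocyte attractant, had 11.99, 12.70 and 11.55 in the same order of pools. The cytokine gene Il6 was higher than control by 0.62 with heparin and 0.35 with peptide, the adhesion molecule gene Vcam1 by 0.60 and 0.28, and the neutrophil attractant gene Cxcl2 by 0.54 and 0.29. Close to level were Sod2 (mitochondrial superoxide dismutase), with 13.15 on all arrays, and the adhesion molecule gene Icam1, with 11.47 in the heparin pool, 11.28 in the peptide pool and 11.39 in the control pool. Ptgs2, the inducible cyclooxygenase, had 10.09 in the heparin pool, 9.63 in the peptide pool and 9.62 in the control pool. Il1b, the cytokine interleukin 1 beta, had 9.69 in the heparin pool, 9.14 in the peptide pool and 9.41 in the control pool, the same order of pools as for Tlr2. Tnf lay below the array median in all 3 pools.

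**Figure D4:**
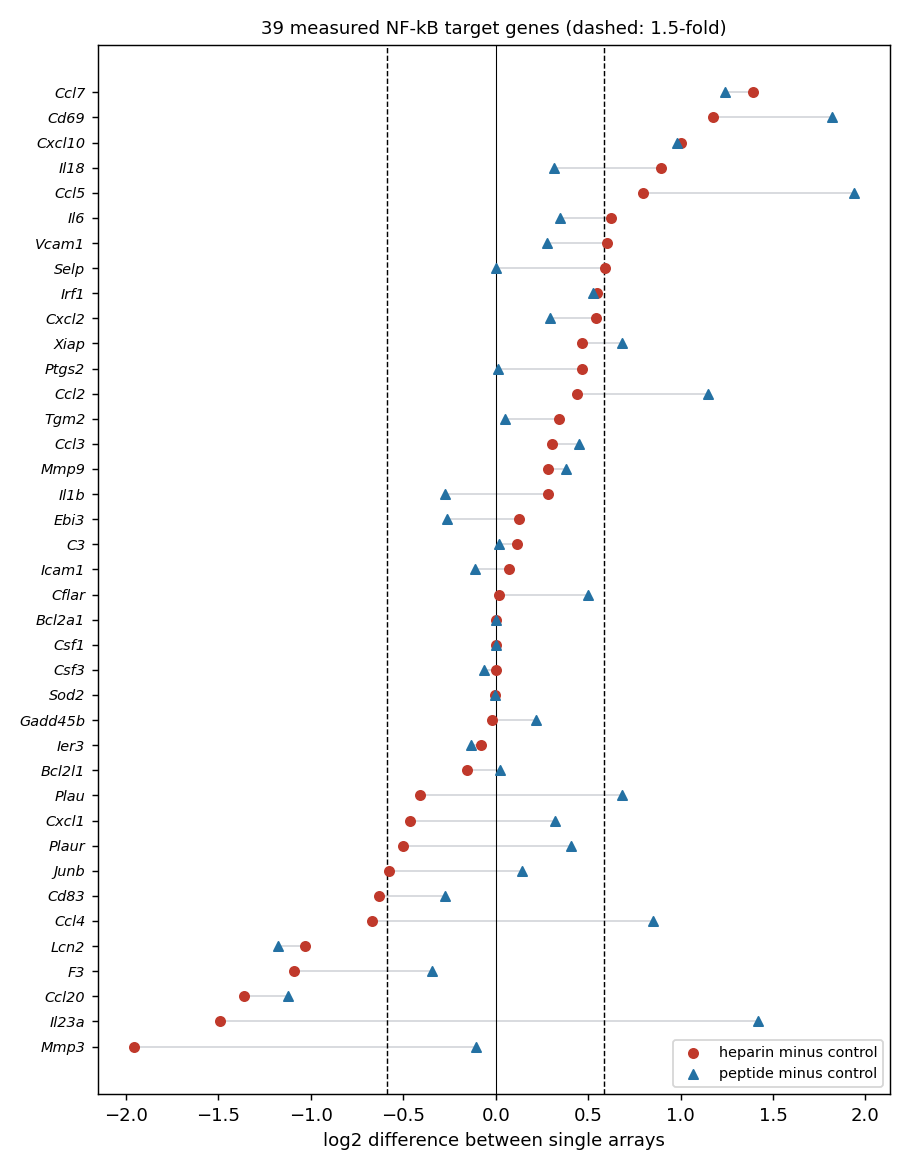
Log2 difference from the control array (horizontal axis) of 39 measured NF-kB target genes on the heparin (circles) and peptide (triangles) arrays, ordered by the heparin difference, with dashed lines at 1.5-fold. Ccl7, Cd69 and Cxcl10 are higher and Lcn2 and Ccl20 lower on both arrays, while Il23a and Ccl4 lie on opposite sides.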

How the data were processed

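Biotin-labelled cRNA from 6 µg of pooled total RNA was hybridised to an Affymetrix rat array, 1 array per group, per the labels' protocols. The authors deposited 1 log2 value per probe set and array, for which the submitters' processing notes name GCRMA without a version. The sources used here do not say how it was run or whether arrays were normalized to each other, and no further normalization was applied. The platform annotation gave 1 symbol for 20832 of 31099 probe sets, several for 436 and none for 9831, and only the first were used. A further toll-like receptor gene is not reported here. All 44 genes matched the RefSeq table of GRCr8 by gene ID. The arrays' log2 values were subtracted (python 3.11.15, pandas 2.3.3) and counted at 1.5-fold and 2-fold, and the counting was tested on simulated data. Arrays have no read depth, and their number, 1 per group, limits the precision. Genes named in full were those past 1.5-fold, the largest of each role group, 8 core genes, and, per pathway list and comparison, up to 4 with the largest difference, plus Cd14 and Chuk. All other signalling genes are accounted for. Of the list names, 121 of 135 pathway and 77 of 96 marker entries were found. Members, lists and alternatives were chosen with earlier results of these data known. Pathway and target genes described beyond that rule (Cxcl10, Ccl2, Il6, Vcam1, Cxcl2, Sod2, Icam1, Ptgs2, Il1b, Tnf and those named in captions or as markers) were chosen after their values were seen. So were Tollip, Xiap, Bcl2l1 and Plau, named for their other probe sets. The alternatives were other filters, quantile normalization, other uses of a gene's probe sets, an added 32 and centring.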

Additional observations from a re-analysis of the deposited data

How the results depend on the processing

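The count of signalling genes at 1.5-fold in heparin against control, 1 of 40, became 2 with quantile normalization of the arrays (Nod1 at 0.61 joined Traf5 at 0.68) and 0 with 32 added to the unlogged values. In the other settings tried (filters at the 40th and 60th percentile, no filter, the mean or the second of a gene's probe sets, centring on the median difference) it was 1, and the counts in peptide against control and heparin against peptide were 1 and 2 in all 8. The median differences moved by less than 0.1 throughout. Of 513 values of 22 named genes, 507 stayed within 0.1 and on their side of 1.5-fold, 6 did not (5 of them with 32 added), and 0 past 1.5-fold changed sign. Most of these values could not move, so 507 is no measure of robustness. Filters leave a difference as it is, centring subtracted a median of 0.00, and every named gene but Ikbkb has 1 probe set. Quantile normalization and the added 32 could change the values of all named genes. With them 1 of 66 and 5 of 66 values moved. No paired analysis was possible because each group has 1 array. The absence of replicates limits every difference.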
